A study of Mus musculus with 2 samples.

Results

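The topoisomerases and the enzymes that repair them were described in mouse uterus as 7 genes of 32285 in the count tables: Top2a, Top2b, Top1, Top3a, Top3b, Tdp1 and Tdp2. They were chosen by gene symbol, as the enzyme class that doxorubicin acts on and the enzymes that clear trapped topoisomerases from DNA, and all 7 had UMIs (unique molecular identifiers, 1 per captured transcript) in both libraries. Mice were given doxorubicin at 3 mg/kg (the DOX group) or that dose of doxorubicin together with 0.75 mg/kg of anti-Müllerian hormone (the DOX plus AMH group). AMH is a hormone of the TGF-beta family, and both groups carried the drug, so every comparison is between 2 treated groups; no untreated library was analysed here. Uteri were collected 4 h after treatment, those of 5 animals were pooled per group and dissociated, and each pool became 1 droplet library of transcript 3′ ends. The labels of these samples give no strain, age or number of doses; the series text names prepubertal mice and repeated dosing, but for bulk sequencing. With 1 library per group nothing could be tested, and all intervals are exact 95% intervals that cover counting error only.

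Topoisomerases cut DNA, pass strands through the cut and close it again. The type II enzymes cut both strands: Top2a serves chromosome condensation and segregation and is made by dividing cells, whereas Top2b is present in dividing and resting cells. Top1, Top3a and Top3b are type I enzymes, which cut a single strand. Top1 relieves the torsion of transcription and replication, Top3a works with Blm, Rmi1 and Rmi2 on recombination intermediates, and Top3b acts with Tdrd3 and also on RNA. Doxorubicin traps type II enzymes on the ends they have cut; Tdp2 removes the peptide that then remains on a 5′ end, and Tdp1 removes the one left on a 3′ end, mainly after Top1.

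On the GRCm38 build (GENCODE M21), Top2a lies at chr11:98992943-99024189 on the minus strand, Top2b at chr14:16365179-16435462 on the plus strand and Top1 at chr2:160645888-160722764 on the plus strand. Top3a lies at chr11:60740058-60777365 on the minus strand and Top3b at chr16:16870736-16892990 on the plus strand. Tdp1 lies at chr12:99884517-99955219 and Tdp2 at chr13:24831679-24842153, both on the plus strand. The last 4624 bases of Top2b, chr14:16430839-16435462, are shared with Rarb on the opposite strand, and an antisense gene, Gm48163, also overlaps Top2b. Top3b overlaps Vpreb1 on the opposite strand, and Tdp1 contains the pseudogene Gm48147 on its own strand. Top2a overlaps the small nucleolar RNA genes Gm26394, on the opposite strand, and Gm23451, on its own strand. Whether the counting used strand is not given in the sources used here. Reads in the opposite-strand overlaps therefore cannot be told apart from a partner's reads on that ground. For Gm48147 and Gm23451, strand could not tell them apart in any case.

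Promoter sequence is shown for Top2a, the member that differed most between the libraries, for its paralogue Top2b, which differed little in the stromal-like and the smooth muscle-like class, and for Mki67, the proliferation antigen whose level followed Top2a most closely. RefSeq promoters (GRCm38.p6) were matched for 5 of the 7 members; Top3a and Tdp2 had no entry. The 250 bases before each start are printed 5′ to 3′ along the gene, chr11:99024190-99024439 (minus strand) for Top2a, chr14:16364956-16365205 (plus strand) for Top2b and chr7:135716380-135716629 (minus strand) for Mki67. Capitals mark CCAAT, the core of the box that NF-Y binds, and TTTGAA and TTCGAA, forms of the cell cycle homology region of G2/M genes, each searched on both strands.
Top2a: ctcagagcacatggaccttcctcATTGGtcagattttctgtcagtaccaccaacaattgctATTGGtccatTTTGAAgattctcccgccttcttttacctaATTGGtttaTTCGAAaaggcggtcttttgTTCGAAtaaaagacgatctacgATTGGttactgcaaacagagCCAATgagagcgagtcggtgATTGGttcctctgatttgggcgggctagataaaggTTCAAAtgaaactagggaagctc
Top2b: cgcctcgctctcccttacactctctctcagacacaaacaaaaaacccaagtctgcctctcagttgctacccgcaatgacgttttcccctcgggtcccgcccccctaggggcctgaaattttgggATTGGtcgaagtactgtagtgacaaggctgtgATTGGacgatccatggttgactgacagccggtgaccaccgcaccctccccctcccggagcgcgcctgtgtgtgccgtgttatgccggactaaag
Mki67: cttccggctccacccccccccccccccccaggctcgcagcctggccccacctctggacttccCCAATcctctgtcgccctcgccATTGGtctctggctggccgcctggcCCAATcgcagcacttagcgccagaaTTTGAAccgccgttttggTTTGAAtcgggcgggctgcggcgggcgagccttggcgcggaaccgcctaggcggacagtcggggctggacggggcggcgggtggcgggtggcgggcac
The Top2a window held 6 CCAAT, 2 TTTGAA and 2 TTCGAA, with no base in more than 1 match. Mki67 held 3 CCAAT and 2 TTTGAA, and Top2b held 2 CCAAT and neither of the other motifs. Kif23 and Cep55, the genes that followed Top2a most closely after Mki67, held fewer. Kif23 had 1 CCAAT and neither of the other motifs. Cep55 had 0 CCAAT in each of its windows and 1 TTTGAA in a single window. Of 32851 promoter windows of the same 250 bases, 33.8% had at least 1 CCAAT and 0.213% had 5 or more, so a count as high as that of Top2a was uncommon. TTTGAA was in 5252 of the windows and TTCGAA in 439 (1.34%). Among the other members, Top3b held 1 CCAAT, Tdp1 held 1 TTTGAA and Top1 held none of the motifs. A match describes the letters only; binding was not measured.

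For DOX, 129530270 UMIs were deposited over 9258 barcodes, and for DOX plus AMH 97887259 over 8083. The 7431 and 6738 cells kept had medians of 13765 and 10101 UMIs. Paired values below give DOX first and DOX plus AMH second. Cells were assigned to classes by marker genes, and a class is called stromal-like and so on because it is a range of a per-cell score: 200 and 280 assigned cells lay within 0.05 of a threshold, and 464 and 485 cells (6.24% and 7.20%) were left unassigned. The libraries shared 17 barcode sequences, 13 of them kept in both. Of 19 classes with markers, 8 had at least 50 cells in both libraries: stromal-like (4895 and 3590 cells), smooth muscle-like (909 and 1053), pericyte-like (106 and 180), columnar epithelial-like (327 and 186), vascular endothelial-like (123 and 223), lymphatic endothelial-like (111 and 51), mesothelial-like (87 and 126) and macrophage-like (263 and 188). In most of them the class's own markers were far above those of any other class; stromal-like cells held a median of 115 and 89.1 UMIs per 10000 from stromal markers and 1.49 and 1.71 from smooth muscle markers. Exceptions that bear on later values were the mesothelial-like and pericyte-like classes and, to a lesser degree, the smooth muscle-like class. Smooth muscle-like cells held 55.3 and 52.6 per 10000 from their own markers and 20.2 and 13.8 from stromal markers. Mesothelial-like cells held more from stromal markers (102 and 89.4 per 10000) than from their own (25.8 and 19.4), and pericyte-like cells of DOX held 30.3 from stromal markers and 28.7 from their own.

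Top2a was the member that differed. Over all kept cells its level was 73.5 and 39.3 CPM (UMIs scaled to a total of 1000000). The other 6 members differed by at most 0.16 on the log2 scale (log2 ratio of CPM, DOX plus AMH over DOX), against -0.90 for Top2a. Top2b stood at 84.1 and 85.9 CPM, Top1 at 185 and 197, Top3a at 5.33 and 5.57, Top3b at 20.8 and 21.4, Tdp1 at 9.99 and 11.2 and Tdp2 at 15.5 and 17.2. These levels are compared between libraries and cell classes within a gene, not between genes.

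In stromal-like cells Top2a was 61.9 CPM (4707 UMIs, 60.2 to 63.7) in DOX and 18.0 CPM (718 UMIs, 16.7 to 19.3) in DOX plus AMH, a log2 ratio of -1.79 (-1.90 to -1.67). Among the 16093 genes with at least 50 UMIs in this class, 101 had a ratio as low or lower, while the median gene stood at 0.16. Among smooth muscle-like cells the level was 69.1 CPM (695 UMIs) and 6.73 CPM (73 UMIs), a log2 ratio of -3.36 (-3.73 to -3.01), and 37 of 12506 genes were as low or lower. A single cell held 45 of the 73 UMIs. Both are ratios of low-frequency cells: the top 5% of stromal-like cells carried 96.8% of the Top2a UMIs of DOX, against 20.2% for Top2b.

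Pericyte-like cells had 84.6 and 31.6 CPM of Top2a (-1.42, -1.98 to -0.88) and lymphatic endothelial-like cells 152 and 42.3 CPM (-1.84, -2.35 to -1.37). In DOX plus AMH these rested on few cells: 1 pericyte-like cell held all 44 UMIs, and 1 lymphatic endothelial-like cell held 26 of 40. In DOX, 7 pericyte-like cells held all 84 UMIs and 1 of them held 47. With a stricter marker threshold the pericyte-like ratio was -0.24. With classes taken from clusters this class held 7 and 2 Top2a UMIs (10.8 and 2.49 CPM), so its level rests on how those cells are assigned. Mesothelial-like cells had 82.5 and 61.7 CPM (-0.42, -0.72 to -0.12). In the other 3 classes the interval of the ratio held 0. Columnar epithelial-like cells stood at 99.7 and 99.2 CPM (-0.0071, -0.13 to 0.11), vascular endothelial-like cells at 105 and 90.1 CPM (-0.22, -0.48 to 0.05) and macrophage-like cells at 34.4 and 40.5 CPM (0.23, -0.20 to 0.67). The columnar epithelial-like class was made up of different clusters in the libraries: 46 of its 186 cells in DOX plus AMH and 0 of 327 in DOX fell in squamous keratin-rich clusters. With classes taken from clusters its ratio was 0.12 (-0.01 to 0.24).

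Counted at 1.3-fold, Top2a was lower in 5 of the 8 classes and higher in none. The share of all tested genes at least 1.3-fold lower was 7.59% in stromal-like, 9.42% in smooth muscle-like, 14.5% in pericyte-like, 16.4% in lymphatic endothelial-like and 30.9% in mesothelial-like cells. In the remaining classes it was 9.90% (columnar epithelial-like), 12.6% (vascular endothelial-like) and 14.7% (macrophage-like). The mesothelial-like value of Top2a therefore sits in a class where lower ratios were common. These shares depend on the scaling: with TMM, a scaling that centres on most genes, the share of calls that were higher went from 75.1% to 45.0% in stromal-like, from 67.3% to 47.8% in smooth muscle-like, from 30.7% to 51.4% in mesothelial-like and from 62.7% to 49.1% in macrophage-like cells.

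**Figure D1:**
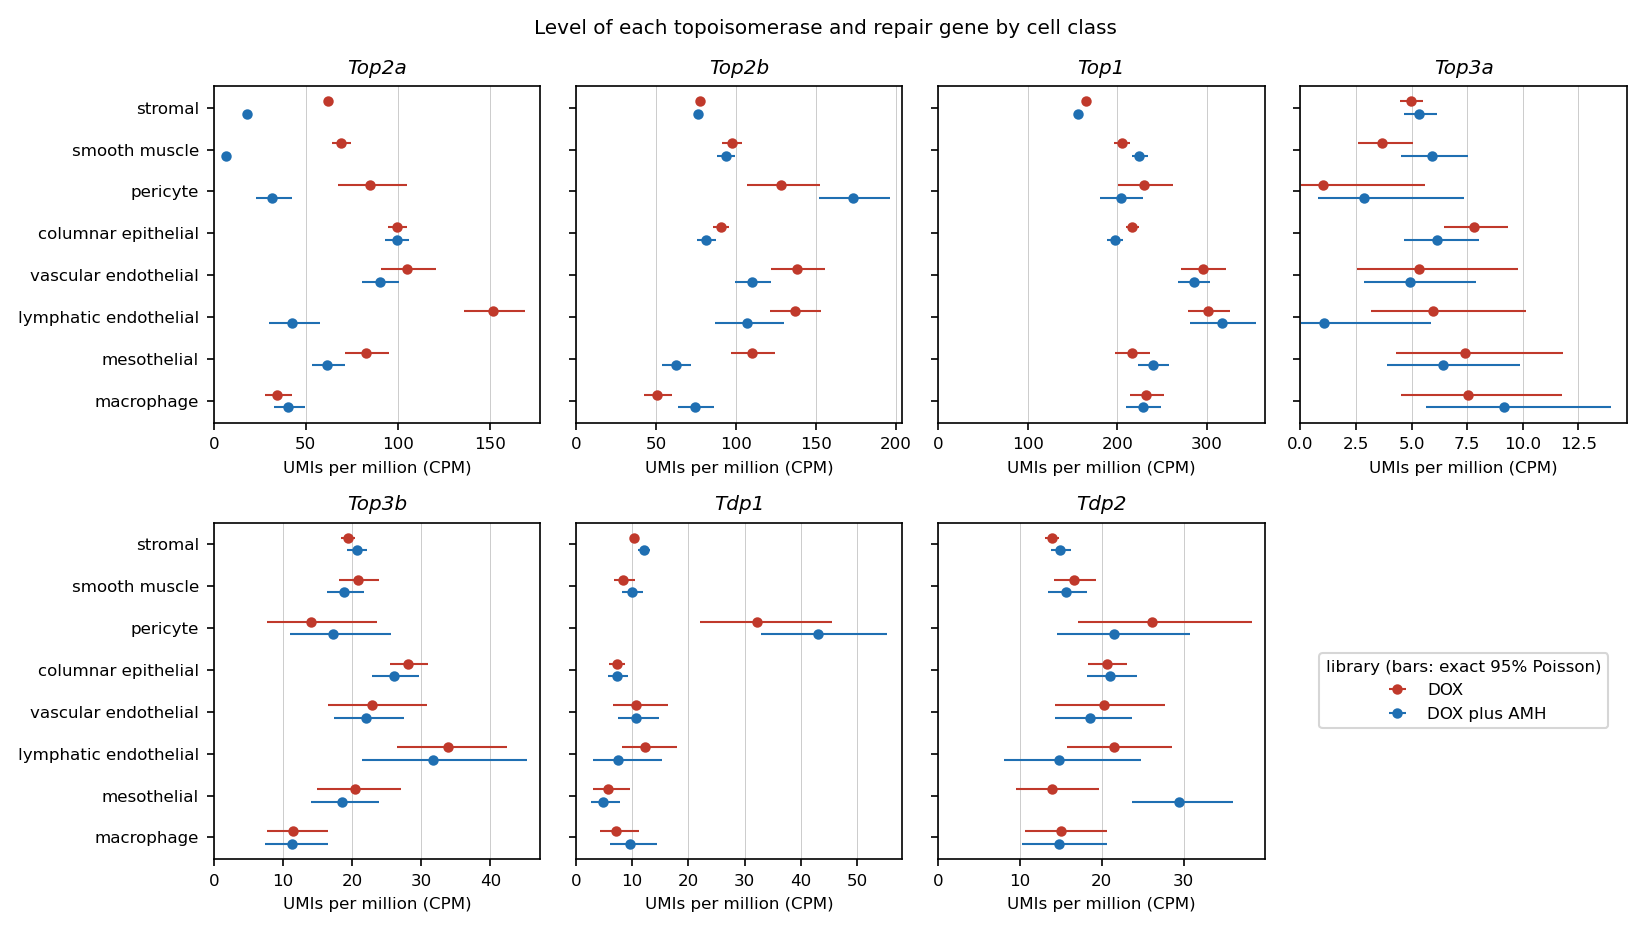
Level of each of the 7 genes in CPM (x axis, linear, a separate range per gene) in 8 marker-assigned cell classes (y axis), DOX in red and DOX plus AMH in blue; points are sums over all cells of a class in 1 library and bars are exact 95% Poisson intervals. Top2a is lower in DOX plus AMH in stromal-like cells (61.9 and 18.0 CPM) and smooth muscle-like cells (69.1 and 6.73 CPM), whereas it is close in columnar epithelial-like cells (99.7 and 99.2 CPM).

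**Figure D2:**
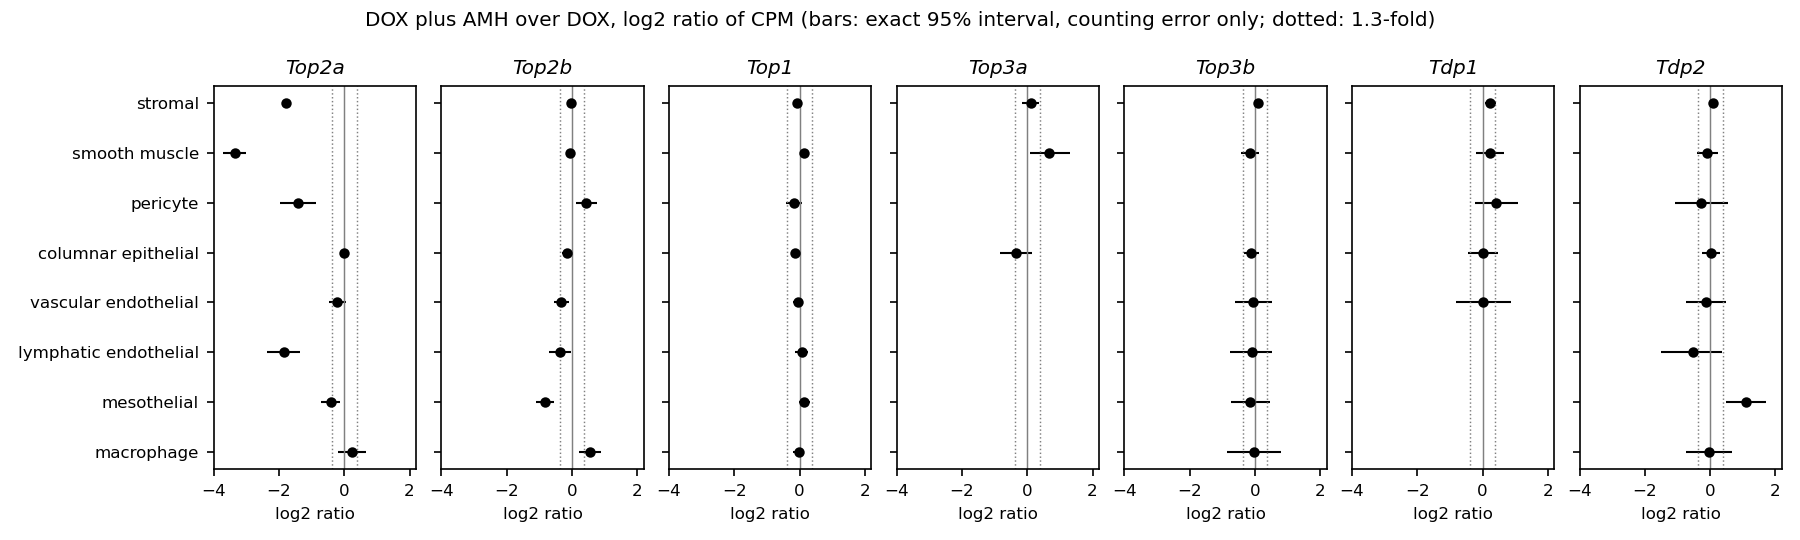
Log2 ratio of CPM, DOX plus AMH over DOX (x axis), by cell class (y axis) for each gene with at least 50 UMIs over both libraries; bars are exact 95% intervals for counting error, the solid line is no difference and dotted lines mark 1.3-fold. Top2a spans -3.36 to 0.23, and Top1 stays between -0.17 and 0.15.

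The order of classes by Top2a level changed between the libraries. In DOX the lowest was macrophage-like and the highest lymphatic endothelial-like, a range of 4.40-fold. In DOX plus AMH the lowest was smooth muscle-like and the highest columnar epithelial-like, a range of 14.8-fold. In each library 4 of the 7 pairs of neighbours in that order had overlapping intervals. Set against Top2b in the same cells, Top2a gave 0.797 and 0.235 UMIs per Top2b UMI in stromal-like cells and 0.709 and 0.0719 in smooth muscle-like cells. In columnar epithelial-like cells the values were 1.10 and 1.22, and in vascular endothelial-like cells 0.761 and 0.818.

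Since Top2a is made by dividing cells, its level was split by the state of the cell. Cells were thinned to 2000 UMIs, and a cell with at least 2 UMIs from 20 G2/M genes (cyclins, mitotic kinases and spindle proteins, Top2a not among them) was counted as a G2/M cell. This definition was added after seeing the data. In stromal-like cells 228 of 4846 (4.70%, 4.13 to 5.34) met this in DOX and 26 of 3562 (0.730%, 0.477 to 1.07) in DOX plus AMH; 49 and 28 shallower cells were left out. These G2/M cells held 91.9% and 84.7% of the class's Top2a UMIs. Inside them the Top2a level was 824 CPM in DOX and 1165 CPM in DOX plus AMH, a log2 ratio of 0.50 (0.38 to 0.62). By this definition the level within G2/M cells was not lower in DOX plus AMH, where it rested on 26 cells, and their share was lower. In the remaining stromal-like cells the level was 5.38 and 2.79 CPM (-0.95, -1.27 to -0.64).

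The share of stromal-like cells with S phase but few G2/M transcripts was not lower in DOX plus AMH. That count leaves out G2/M cells, whatever S phase UMIs they hold. Over the whole class 12 of 20 S phase genes were at least 1.3-fold lower (median -0.45). Stromal-like cells with at least 2 UMIs from 20 S phase genes and under 2 from G2/M genes made up 3.92% (3.39 to 4.51) and 4.88% (4.20 to 5.64). Top2a in them was 30.8 and 18.2 CPM. When G2/M and S phase genes were counted together, with at least 2 UMIs from the combined list, 467 and 240 stromal-like cells qualified and their Top2a level was 478 and 210 CPM (-1.19). G2/M cells made up 228 of the 467 and 26 of the 240, and the ratio has the opposite sign from the one in G2/M cells alone. With at least 3 UMIs from the combined list the Top2a ratio was -0.13 (-0.25 to -0.0093).

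In smooth muscle-like cells 28 of 880 (3.18%, 2.12 to 4.57) and 3 of 1034 (0.290%, 0.0599 to 0.846) were G2/M cells. Their Top2a level was 1130 and 1093 CPM, and the other cells stood at 2.65 and 2.60 CPM (-0.03, -0.86 to 0.81). A single cell held all 45 UMIs of the 3 cells of DOX plus AMH. The 28 cells of DOX carried Myh11, the smooth muscle myosin, at 1581 CPM and Pdgfra, a fibroblast receptor, at 3.38 CPM, against 2599 and 3.82 CPM in the other smooth muscle-like cells of DOX. Cnn1, another smooth muscle marker, was 711 against 1171 CPM. Dcn, another stromal marker, was 537 against 444 CPM, so it was higher in the 28 cells. Clustering put 22 of the 28 into clusters made up mostly of stromal-like cells. When classes were taken from clusters, Top2a in smooth muscle-like cells came to 38 and 30 UMIs and a log2 ratio of -0.52 (-1.26 to 0.21), so this value rests on how those cells are assigned.

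Outside these classes the share of G2/M cells was higher than in stromal-like cells in both libraries, except in macrophage-like cells of DOX. Columnar epithelial-like cells had 42 of 318 (13.2%, 9.69 to 17.4) and 20 of 177 (11.3%, 7.04 to 16.9), with Top2a at 398 and 408 CPM in them and 32.2 and 21.7 CPM in the rest. In vascular endothelial-like cells the shares were 16.1% (9.81 to 24.2) and 7.14% (4.05 to 11.5), with 382 and 565 CPM in the G2/M cells. Lymphatic endothelial-like cells had 11.2% and 8.16%, or 12 and 4 cells, with 399 and 202 CPM in them and 59.2 and 5.24 CPM in the rest. Mesothelial-like cells had 11.6% and 6.35%, with 404 and 304 CPM, and macrophage-like cells 3.35% and 6.06%, with 390 and 548 CPM. Pericyte-like cells had 7 of 104 (6.73%) and 2 of 176 (1.14%). The intervals of the 2 shares overlapped in pericyte-like, columnar epithelial-like, vascular endothelial-like, lymphatic endothelial-like, macrophage-like and mesothelial-like cells. They did not overlap for the stromal-like or the smooth muscle-like class. Which intervals overlapped depended on the thinning. With cells thinned to 5000 UMIs, those of pericyte-like cells did not overlap (13.0%, 6.93 to 21.7, and 2.21%, 0.457 to 6.31). Those of lymphatic endothelial-like cells were also apart, but narrowly (37.2%, 27.48 to 47.8, and 11.8%, 3.30 to 27.45). The stromal-like and smooth muscle-like intervals stayed apart there, and those of the remaining classes still overlapped.

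Low levels of Top2a were set beside pericyte-like cells. Those with under 2 G2/M UMIs held 4 Top2a UMIs in 97 cells of DOX (4.47 CPM, 1.22 to 11.4) and 0 in 174 cells of DOX plus AMH, which allows a level of up to 2.21 CPM at 3 counts. Those with under 2 UMIs from the G2/M and S phase lists combined, 84 and 159 cells at medians of 8417 and 7389 UMIs, held 0 in both libraries, which allows up to 3.94 and 2.38 CPM. In the cells with under 2 G2/M UMIs, the stromal-like level was 5.38 and 2.79 CPM and the smooth muscle-like level 2.65 and 2.60 CPM. In DOX both lay inside the wide pericyte-like interval, which rests on 4 UMIs. In DOX plus AMH both lay above the pericyte-like limit of 2.21 CPM. The stromal-like interval there (2.29 to 3.36) did not reach that limit. The level of free RNA was not measured. The share of cells with any Top2a UMI at 2000 UMIs per cell was 3.65% and 0.702% in stromal-like, 2.39% and 0.774% in smooth muscle-like and 8.18% and 8.47% in columnar epithelial-like cells. Without thinning, and at the medians of 14802 and 10270 UMIs of stromal-like cells, it was 8.07% and 2.28%; in columnar epithelial-like cells it was 40.1% and 31.2%.

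**Figure D3:**
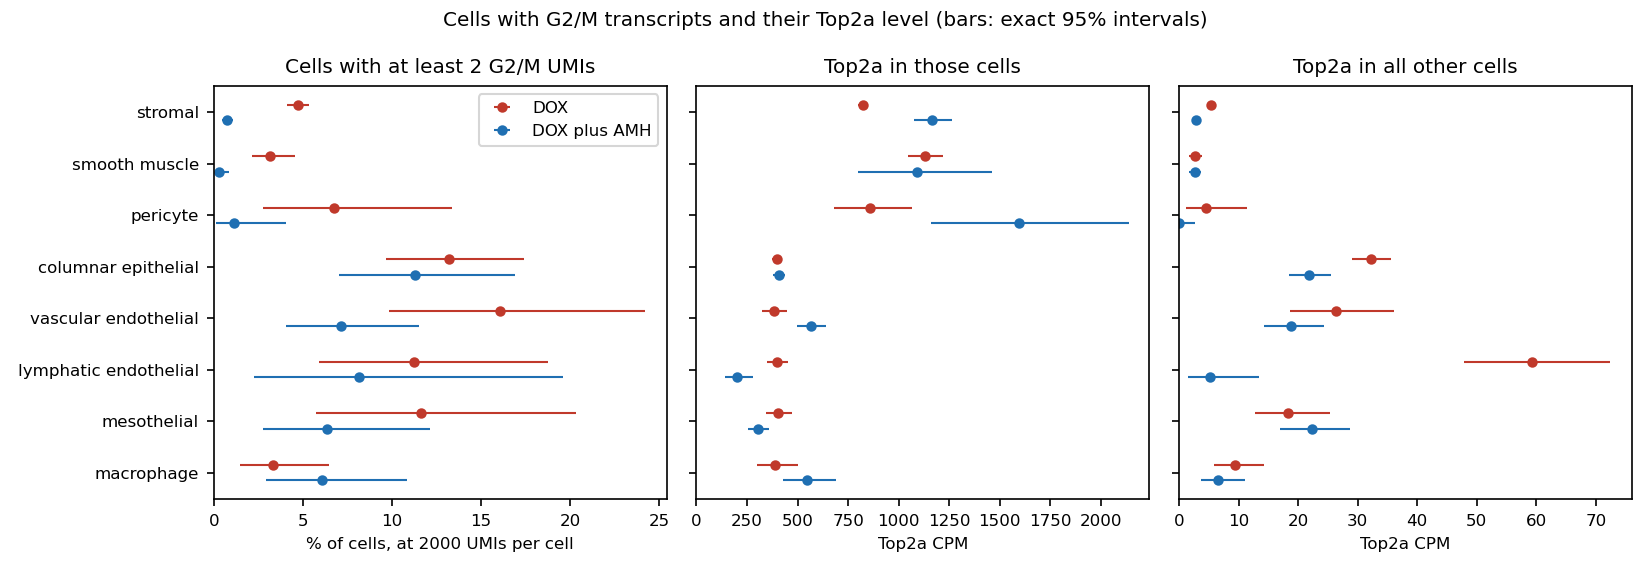
Left, share of cells with at least 2 UMIs from G2/M genes after thinning to 2000 UMIs per cell (x axis, %); middle and right, Top2a level in those cells and in all others (x axis, CPM), by cell class (y axis), DOX in red and DOX plus AMH in blue, with exact 95% binomial or Poisson intervals. In stromal-like cells the share is 4.70% and 0.730% while Top2a in those cells is 824 and 1165 CPM.

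The 3 genes whose levels followed Top2a most closely over the 16 sums (8 classes in 2 libraries, log2 of CPM plus 1, among 13341 genes) were Mki67 (Pearson r 0.97), Kif23 (0.97) and Cep55 (0.95). Kif23 is a motor of the central spindle and Cep55 a protein of the last step of cytokinesis. The sums of a library share its depth and preparation, so these values are a description. No other member was among them, and r between Top2a and the other 6 ranged from -0.10 with Tdp1 to 0.41 with Tdp2. All 20 G2/M genes were at least 1.3-fold lower in stromal-like cells (median -2.03) and in smooth muscle-like cells (median -3.16), where the median over all genes was 0.16 and 0.12. Of the S phase genes, 12 of 20 were lower in stromal-like cells (median -0.45) and 10 of the 15 with enough UMIs in smooth muscle-like cells (median -0.54). The share of all tested genes that were lower was 7.59% in stromal-like and 9.42% in smooth muscle-like cells. In columnar epithelial-like cells 3 of 20 G2/M genes were higher and 0 lower (median 0.22). There 15.8% of all tested genes were higher and 9.90% lower. The G2/M list did not follow Top2a in every class. In mesothelial-like cells, where Top2a was lower, 6 of 14 tested G2/M genes were higher and 0 lower (median 0.35). Of all tested genes in that class 13.7% were higher and 30.9% lower. In vascular endothelial-like cells, where the interval of Top2a held 0, 10 of 19 G2/M genes were lower and 2 higher (median -0.42). In the same class 11 of 15 S phase genes were higher and 0 lower, beside 13.0% higher and 12.6% lower over all tested genes. The G2/M genes that were lower numbered 12 of 14 in lymphatic endothelial-like, 5 of 5 in pericyte-like and 3 of 6 in macrophage-like cells, with 0 higher. Over all tested genes of these classes, in the same order, 16.4%, 14.5% and 14.7% were lower and 17.3%, 18.6% and 24.6% higher.

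Top2b, the type II enzyme that resting cells also make, was close in the largest classes. It stood at 77.7 and 76.5 CPM in stromal-like cells (-0.02, -0.09 to 0.04) and at 97.4 and 93.5 CPM in smooth muscle-like cells (-0.06, -0.19 to 0.07). It was lower in mesothelial-like cells, 110 and 62.3 CPM (-0.82, -1.09 to -0.54), and UMIs of it were found in 71 of 87 and 79 of 126 cells. In 3 further classes the ratio was under 1.3-fold but its interval lay below 0: vascular endothelial-like (138 and 110 CPM; -0.33, -0.56 to -0.09), lymphatic endothelial-like (137 and 107 CPM; -0.36, -0.70 to -0.03) and columnar epithelial-like cells (90.7 and 81.3 CPM; -0.16, -0.29 to -0.03). With classes taken from clusters the vascular and the columnar interval held 0. It was higher in macrophage-like cells, 50.7 and 74.5 CPM (0.56, 0.22 to 0.90), and in pericyte-like cells, 128 and 173 CPM (0.43, 0.12 to 0.76). With classes taken from clusters the pericyte-like ratio was 0.01, and the mesothelial-like and macrophage-like ratios were -0.67 and 0.60. Rarb, which shares the end of the gene, was 9.12 and 24.0 CPM in mesothelial-like cells, the opposite direction from Top2b, and 1.19 and 8.27 CPM in macrophage-like cells, the same direction; its part in the Top2b counts was not tested.

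The log2 ratio of Top1 ran from -0.17 in pericyte-like to 0.15 in mesothelial-like cells and reached 1.3-fold in no class. Stromal-like cells had the lowest level in both libraries (165 and 156 CPM) and lymphatic endothelial-like cells the highest (302 and 316 CPM), with vascular endothelial-like cells next (295 and 285 CPM). The intervals of these endothelial classes overlapped in both libraries and lay above those of stromal-like cells. Over the 16 sums the genes most like Top1 were Ssb (0.93), Lypla1 (0.91) and Nsd2 (0.91).

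The type IA enzymes were sparse. Top3b was 19.5 and 20.7 CPM in stromal-like cells, and the intervals of its ratio held 0 in all 8 classes. It was lowest in macrophage-like cells (11.5 and 11.3 CPM) and highest in lymphatic endothelial-like cells (33.8 and 31.7 CPM) in both libraries. Top3a reached 50 UMIs in 3 classes only. It was 4.99 and 5.35 CPM in stromal-like cells, 7.79 and 6.16 CPM in columnar epithelial-like cells and 3.68 and 5.90 CPM in smooth muscle-like cells (37 and 64 UMIs; 0.68, 0.08 to 1.31). With TMM scaling the last interval held 0 (0.57, -0.04 to 1.19).

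Tdp1 had its highest level in pericyte-like cells in both libraries, 32.2 CPM (22.1 to 45.5) and 43.1 CPM (32.9 to 55.4). The next class was lymphatic endothelial-like in DOX (12.3 CPM, 8.13 to 18.0) and stromal-like in DOX plus AMH (12.1 CPM, 11.1 to 13.2), so the intervals did not overlap. The size of this depends on the class: 54 of 106 and 104 of 180 pericyte-like cells fell in clusters where no class held a majority. With classes taken from clusters Tdp1 was 18.5 and 19.9 CPM (12 and 16 UMIs). This was still the highest of the 8 classes but with intervals that overlapped those of other classes. Under the stricter marker threshold it was 41.2 and 46.7 CPM. Mesothelial-like cells had the lowest Tdp1 in both libraries (5.64 and 4.79 CPM). Between the libraries Tdp1 was 10.3 and 12.1 CPM in stromal-like cells (0.23, 0.07 to 0.40), under 1.3-fold, and the pericyte-like ratio of 0.42 had an interval that held 0 (-0.22 to 1.08).

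Tdp2, the enzyme for trapped type II topoisomerases, was 13.9 and 14.9 CPM in stromal-like cells (0.10, -0.05 to 0.24) and 16.6 and 15.7 CPM in smooth muscle-like cells. Mesothelial-like cells were the exception, with 13.9 CPM (9.50 to 19.6; 32 UMIs in 20 of 87 cells) and 29.4 CPM (23.7 to 36.1; 92 UMIs in 47 of 126 cells), a log2 ratio of 1.08 (0.49 to 1.71). The ratio was 0.94 with classes taken from clusters and 1.46 without G2/M cells. Lymphatic endothelial-like cells had 21.5 and 14.8 CPM from 47 and 14 UMIs, and the interval of that ratio held 0 (-0.54, -1.51 to 0.35). Mesothelial-like cells thus had less Top2b and more Tdp2 in DOX plus AMH, in a class of 87 and 126 cells.

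Across the 6 members other than Top2a, 39 of 48 pairs of gene and class had at least 50 UMIs. Of these 32 were within 1.3-fold, 5 were higher and 2 lower. The higher pairs were Top3a in smooth muscle-like cells, Top2b and Tdp1 in pericyte-like cells, Tdp2 in mesothelial-like cells and Top2b in macrophage-like cells. The share of all tested genes at least 1.3-fold higher in those classes was 19.4% in smooth muscle-like, 18.6% in pericyte-like, 13.7% in mesothelial-like and 24.6% in macrophage-like cells. In the classes with no higher pair it was 23.0% in stromal-like, 15.8% in columnar epithelial-like, 13.0% in vascular endothelial-like and 17.3% in lymphatic endothelial-like cells. The lower pairs were Top2b in mesothelial-like and Tdp2 in lymphatic endothelial-like cells, where 30.9% and 16.4% of all tested genes were lower. In the classes with no lower pair the lower share was 7.59% in stromal-like, 9.42% in smooth muscle-like and 14.5% in pericyte-like cells. It was 9.90% in columnar epithelial-like, 12.6% in vascular endothelial-like and 14.7% in macrophage-like cells. Against those shares the 6 genes do not stand out as a set. With TMM scaling 30 pairs were within 1.3-fold, the same 5 were higher and 4 lower. Under TMM the genes higher were 1536 of 12506 in smooth muscle-like, 1224 of 6384 in pericyte-like, 1981 of 9710 in mesothelial-like and 1513 of 8088 in macrophage-like cells. The 4 lower pairs lay in columnar epithelial-like, lymphatic endothelial-like and mesothelial-like cells. There 1535 of 12770, 1505 of 7921 and 1873 of 9710 genes were lower.

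In stromal-like cells of both libraries the repair enzymes were higher in G2/M cells than in the other cells. Tdp1 was 9.60 CPM outside and 19.6 CPM inside G2/M cells of DOX, a log2 ratio of 1.03 (0.72 to 1.33), and 11.8 and 34.5 CPM in DOX plus AMH (1.55, 0.78 to 2.22). Tdp2 was 13.3 and 22.5 CPM in DOX (0.75, 0.47 to 1.03) and 14.7 and 34.5 CPM in DOX plus AMH (1.23, 0.47 to 1.91), where each rested on 18 UMIs in 26 cells. In smooth muscle-like cells of DOX the ratio was 1.39 (0.37 to 2.28) for Tdp1 and 0.76 (-0.08 to 1.51) for Tdp2. Columnar epithelial-like cells gave 0.89 (0.25 to 1.51) and 0.43 (0.03 to 0.82) in DOX, and 0.38 and 0.20, with intervals that held 0, in DOX plus AMH. The G2/M cells were deeper, at medians of 22266 and 22382 UMIs against 14692 and 10298 in the other stromal-like cells; the part of depth was not tested.

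In DOX the topoisomerases other than Top2a were closer between G2/M and other stromal-like cells. In stromal-like cells of DOX the ratio of G2/M cells to the rest was 0.18 (0.04 to 0.32) for Top2b, 0.00 for Top1 (165 CPM in both), 0.16 (-0.44 to 0.71) for Top3a and 0.11 (-0.18 to 0.40) for Top3b. Top1 was lower in G2/M cells of DOX plus AMH, 113 against 157 CPM (-0.47, -0.87 to -0.10), from 59 UMIs. The ratio in that library was 0.24 (-0.21 to 0.65) for Top2b. It was 1.12 (-0.34 to 2.27) for Top3a from 6 UMIs and -0.63 (-1.95 to 0.42) for Top3b from 7 UMIs. These UMIs were too few to say whether Top3a and Top3b were close there. For Top2a itself the same ratio was 7.26 in stromal-like cells of DOX and 3.63 in columnar epithelial-like cells of DOX.

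**Figure D4:**
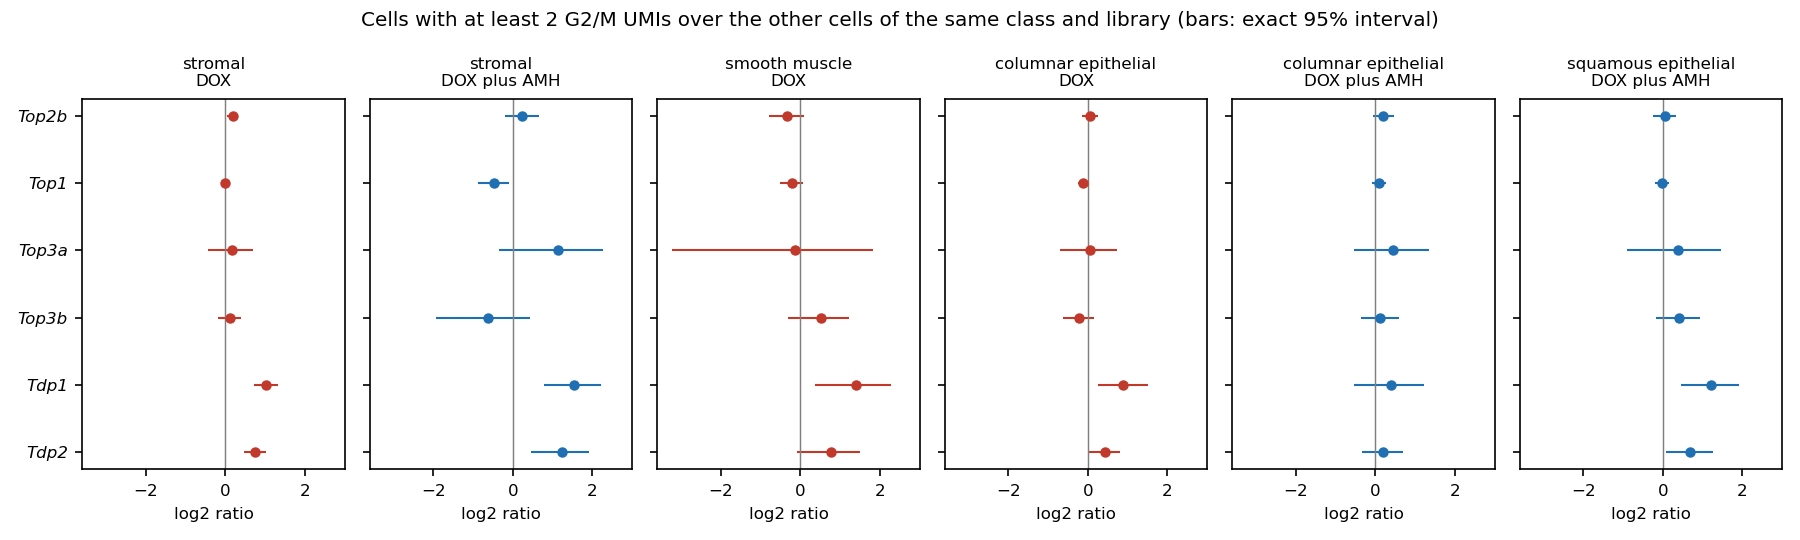
Log2 ratio of CPM in cells with at least 2 G2/M UMIs over the other cells of the same class and library (x axis) for the 6 members other than Top2a (y axis), with exact 95% intervals; DOX panels are red and DOX plus AMH panels blue. Tdp1 and Tdp2 lie to the right of 0 in stromal-like cells of both libraries (1.03 and 0.75 in DOX), and Top1 is at 0.00 in stromal-like cells of DOX.

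The list of 26 partners of the topoisomerases and of the repair of their breaks stayed mostly within 1.3-fold in the stromal-like and the smooth muscle-like class. In stromal-like cells 23.0% of all tested genes were at least 1.3-fold higher and 7.59% lower. All 26 partners had enough UMIs there, 0 were higher and 2 lower, and the median was 0.13 beside 0.16 for all genes. The 4 lowest were Lig4, the ligase of end joining (2.09 and 1.58 CPM, -0.41), Rmi2 (2.10 and 1.60 CPM, -0.39), the mitochondrial topoisomerase Top1mt (5.14 and 4.00 CPM, -0.36) and the helicase Blm (8.17 and 7.10 CPM, -0.20). The 4 highest were Xrcc6, a Ku subunit (17.9 and 22.6 CPM, 0.34), Xrcc4 (42.2 and 52.5 CPM, 0.31), Lig3 (12.6 and 15.6 CPM, 0.30) and Tdrd3 (35.3 and 42.1 CPM, 0.26). Of the lowest, the interval of Top1mt alone excluded 0.

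In the smooth muscle-like class 19.4% of all tested genes were higher and 9.42% lower. It had 25 of the 26 partners with enough UMIs, of which 2 were higher and 3 lower, with a median of 0.08 beside 0.12 for all genes. Top1mt was the lowest, 8.45 and 3.13 CPM from 85 and 34 UMIs (-1.43, -2.05 to -0.84). Rad50, of the complex that holds and trims broken ends, followed at 66.9 and 47.3 CPM (-0.50, -0.67 to -0.33). Rbbp8, a resection factor, was also among the lowest, at -0.31 (-0.55 to -0.08). The highest were Lig4 (0.46, -0.25 to 1.19), Xrcc4 (0.41, 0.20 to 0.62), Sprtn (0.26) and Xrcc6 (0.24). Lig4 was at opposite ends of the list in the 2 classes, whereas Top1mt was among the lowest and Xrcc4 among the highest in both. In mesothelial-like cells 14 of 20 tested partners were lower and 3 higher (median -0.49 beside -0.16 for all genes), where 30.9% of all tested genes were lower and 13.7% higher.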

How the data were processed

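Single-cell RNA was measured in 2 libraries of pooled mouse uteri. Per the submitters' processing notes the reads were processed with Cell Ranger 7.0.0 on mm10; the annotation, the intron setting and the use of strand are not given in the sources used here. The deposited matrices hold the authors' raw UMI counts per gene and barcode, and their barcodes have at least 500 UMIs. Cells with at least 1000 UMIs, 500 genes and at most 15% mitochondrial UMIs were kept (7783 and 7065), and 352 and 327 with a Scrublet doublet score over 0.2 were removed (scanpy 1.11.5), because the caller's own threshold marked 396 and 0 cells. Each marker gene was scaled to its 99th percentile in UMIs per 10000. A cell took the class with the highest mean if that was at least 0.25 and at least 0.1 above the next. For an alternative, Leiden clusters (igraph 0.11.9, 2000 variable genes, 30 components, 15 neighbours, resolution 1) took the class that held a majority of all their cells. Clusters without such a class stayed unassigned.

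UMIs were summed per class and library, since cells are not replicates, and scaled to CPM over all genes. Log2 ratios have exact intervals from the binomial split of the UMIs and levels exact Poisson intervals; a pool of 5 animals is 1 sample, so no test was made, and intervals hold no spread between animals. Levels of free RNA are not separated from expression. Genes with at least 50 UMIs over both libraries were counted at 1.3-fold. The interval calculation was tested on simulated data. Named genes are the 7 members, the 4 highest and 4 lowest partner genes in the stromal-like and in the smooth muscle-like class, and the 3 genes most correlated with a member among those reaching 10 CPM. A partner gene that this rule names is not reported here. Rarb was added for its overlap and Myh11, Cnn1, Pdgfra and Dcn as marker checks. The members, gene lists and markers were chosen with earlier results of these data known, and the class thresholds and the doublet score were set after seeing the data. Promoters came from RefSeq on GRCm38.p6, positions from GENCODE M21. Alternatives were TMM scaling (edgeR 4.0.16), totals over nuclear genes, no and stricter cell filters (2000 UMIs, 1000 genes, 10% mitochondrial), doublets kept, a stricter marker threshold (0.4 and 0.2), cluster classes, dividing cells left out, other thinning, other definitions of dividing cells, and for the partner list other UMI minimums (20 and 200) and a fold of 1.5.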

Additional observations from a re-analysis of the deposited data

Results flagged for a closer look

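Top2a UMIs were also found in cells that no comparison of classes used. Cells left unassigned by the marker thresholds held Top2a at 113 CPM in DOX (476 UMIs in 464 cells) and 60.9 CPM in DOX plus AMH (256 UMIs in 485 cells), a difference in the same direction as over all cells. Squamous keratin-rich epithelial-like cells were nearly all from DOX plus AMH (6 and 394 cells), and there Top2a was 57.8 CPM (53.4 to 62.4), with 606 of 640 UMIs in 27 G2/M cells. No library without doxorubicin was analysed here, so these levels could not be set against an untreated one.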

How the results depend on the processing

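Of 421 alternative values for 47 ratios of member and class, 389 stayed inside the interval of the reported value, 30 moved out of it and 2 were counted as reversed. That last count does not cover every change of sign. With classes from clusters, Top2a in macrophage-like cells went from 0.23 to -0.036. Tdp2 in pericyte-like cells went from -0.28 to 0.62. TMM scaling shifted ratios by -0.19 in stromal-like, -0.11 in smooth muscle-like and 0.16 in mesothelial-like cells, and by less than 0.1 elsewhere. Top2a in stromal-like cells was -1.98 with TMM, -1.65 with the stricter marker threshold, -0.98 without dividing cells and -0.95 without G2/M cells (the last chosen after seeing the data). In smooth muscle-like cells it was -4.55 with the stricter threshold, -0.52 with classes from clusters, 0.035 without dividing cells (the opposite direction) and -0.031 without G2/M cells. In columnar epithelial-like cells it was -0.13 with the stricter cell filter, 0.12 with classes from clusters, -0.44 without dividing cells and -0.57 without G2/M cells. In mesothelial-like cells it was 0.29 without G2/M cells. The cause of these changes was not tested.

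The difference in the share of cells with a Top2a UMI (percentage points, DOX plus AMH minus DOX) was -2.95 in stromal-like cells at 2000 UMIs, -3.50 at 5000 UMIs and -5.79 without thinning. In smooth muscle-like cells it was -1.61, -2.62 and -2.80, and in columnar epithelial-like cells 0.298, -4.58 and -8.88, so its direction there depends on depth. In macrophage-like cells it was 3.19 without thinning, the opposite direction from the thinned value. Top2a within dividing stromal-like cells was -1.75 with at least 1 cell cycle UMI, -0.13 with at least 3 and 0.50 with at least 2 G2/M UMIs (a definition added after seeing the data). Partner genes lower in stromal-like cells numbered 0 at a fold of 1.5 and 4 with TMM. In smooth muscle-like cells 1 was higher at 200 UMIs, 0 at a fold of 1.5 and 0 with TMM, and 1 was lower at a fold of 1.5. Over all tested genes TMM gave 2295 of 16093 lower in stromal-like cells and 1536 of 12506 higher in smooth muscle-like cells. No paired analysis was possible because each group is 1 library of pooled animals, and no replicate could be left out. Depth limits Top3a most, with under 50 UMIs in 5 of 8 classes, and Top2a where a single cell carried most of its UMIs, as in smooth muscle-like, pericyte-like and lymphatic endothelial-like cells of DOX plus AMH.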

Other observations

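In the 27 G2/M cells of the squamous keratin-rich epithelial-like class of DOX plus AMH, Tdp1 was 19.6 CPM against 8.40 CPM in the other cells of the class (log2 ratio 1.22, 0.46 to 1.92) and Tdp2 was 27.0 against 16.7 CPM (0.69, 0.07 to 1.27), while Top1 was 257 against 260 CPM and Top2b 103 against 99.5 CPM. Dendritic-like cells (63 and 33) held Top2a at 130 and 268 CPM, and lymphocyte-like cells (49 and 60) at 447 and 71.6 CPM, where 14 and 3 cells were G2/M cells. These classes had under 50 cells in a library and were not compared.

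The genes most like the remaining members over the 16 sums of class and library were Rhot1 (r 0.92), Ankrd50 (0.90) and Ppat (0.89) for Top2b, Adck2 (0.89), Dnajc16 (0.82) and Chmp1a (0.82) for Top3a, and Osbpl10 (0.94), Rabgap1l (0.94) and Stox2 (0.93) for Top3b. For Tdp1 they were Gm12709 (0.94), Trarg1 (0.94) and Cdk15 (0.94), and for Tdp2 Gnpnat1 (0.77), Slc30a6 (0.74) and Suco (0.73). Among the 21 pairs of members, r was highest between Top2b and Tdp1 (0.64) and lowest between Top3a and Tdp1 (-0.54).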
